A study of Homo sapiens with 3 samples.

Results

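The protein-coding transcripts of the mitochondrial genome were examined in unstressed HEK-293T cells, a human embryonic kidney line that carries the SV40 T-antigen. Of 10 listed genes, 7 had a probe set (a group of short probes for a transcript) listed for them alone, namely ND2, ND4, ND6, COX1, COX2, COX3 and ATP6. These 7 genes were covered by 10 probe sets of 54675 on the array, with 2 each for ND4, COX2 and ATP6, and of 19775 genes with a probe set of their own. For ND1, ND5 and CYTB no probe set was named in the platform annotation used here, and they were not analysed here. Biotin-labeled RNA copies (cRNA) made from the total RNA of 3 cultures were hybridized to Affymetrix Human Genome U133 Plus 2.0 arrays, 1 array per culture. All cultures grew untreated in DMEM with 10% serum. The 24 h culture was seeded at 1000K cells, the low-seeded 48 h culture at 375K and the high-seeded 48 h culture at 750K, so harvest time and seeding cannot be told apart. The sample titles number both 48 h cultures in sequence and the 24 h culture apart from them, without saying what the numbers mean. Whatever goes with these numbers cannot be told apart from harvest time either. The labels attach a temperature-sensitive T-antigen to every sample. Nothing states whether the cultures came from separate passages, so any p-value measures only the spread between these samples.

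The mitochondrial genome is a small circular DNA. It is transcribed in both directions into long precursors, which are cut, mostly at the transfer RNAs, into messages. Every protein it encodes is a membrane subunit of the respiratory chain or of the ATP synthase, where it sits beside subunits encoded in the nucleus. ND6 is the only protein encoded on the light strand, and all other members lie on the heavy strand. The heavy strand also carries the ribosomal RNAs of the organelle.

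All 3 arrays had the same trimmed mean signal of 500.1, and their RNA integrity numbers were 9.5 at 24 h, 9.6 in the low-seeded and 10.0 in the high-seeded 48 h culture. Background was set by the 95th percentile of 127 probe sets for olfactory and bitter taste receptors, at signals of 80.6 to 117.6, which a probe set had to exceed on every array to count as expressed. By this measure 21260 probe sets were expressed, and between arrays their log2 signals correlated at 0.985 to 0.988. This describes agreement over genes, which are not replicates. Of the embryonic kidney genes checked, EYA1, PAX8, SALL1 and WT1 were above background and PAX2 and LHX1 were not, while both neurofilament genes, NEFL and NEFM, were. None of 4 mature tubule and podocyte markers, 3 endothelial markers or 3 leukocyte markers was above background, and of 4 fibroblast markers only COL1A1 was.

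All 10 probe sets of the mitochondrial genome were above background in every culture, and all 10 gave their highest signal at 24 h. The genes had been chosen by this difference between 24 h and 48 h in the same arrays, so it is given as a description without a test. Over all 23462 probe sets tested, 35% had their highest signal at 24 h and 35.3% their lowest. Signals more than 1.5-fold above both 48 h cultures were found for 3 of the 10 (ND4 on 1 of its probe sets, COX3 and ND6), and for 1.94% of all tested. The median difference of the 10 probe sets was 0.37 on the log2 scale (24 h minus the mean of both 48 h cultures), against 0.0047 over all tested probe sets. Differences were taken on log2(signal + 22.4), which understates those of low signals. Signals of different probe sets cannot be compared with each other, so no order of levels among the genes is given. The arrays show a share of the RNA in the sample, and more mitochondrial genomes per cell cannot be told apart from more RNA per genome.

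**Figure D1:**
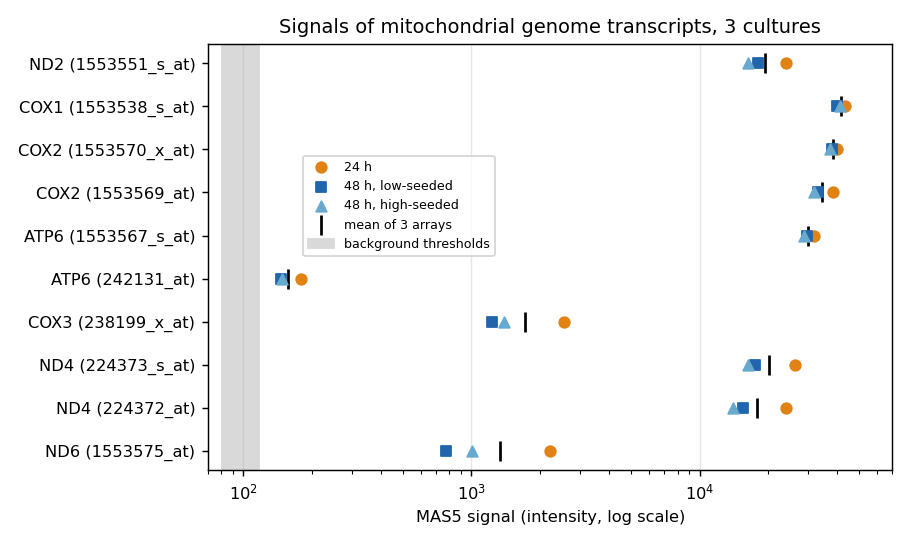
MAS5 signals (intensity, log scale) of the 10 probe sets in the 24 h, low-seeded 48 h and high-seeded 48 h cultures, in the order of the genes along the genome, with ticks at the mean of the 3 arrays and a grey band over the background thresholds of 80.6 to 117.6. The 24 h symbol lies to the right of both 48 h symbols in every row.

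The subunits of complex I, the NADH dehydrogenase that feeds electrons into the chain, were the group with differences of 0.48 or more on every probe set. ND2, a membrane subunit of the proton-pumping arm, gave a signal of 23884 at 24 h, against 17936 in the low-seeded and 16292 in the high-seeded culture at 48 h. The 24 h signal lay 1.33-fold and 1.47-fold above those of the 48 h cultures, a log2 difference of 0.48 with a standard error of 0.10. Standard errors here come from limma and rest largely on the spread of other probe sets, since only the 48 h group has more than 1 array.

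ND4, a further pumping subunit of complex I, was measured by 2 probe sets. The first (of the _at kind) gave 24007 at 24 h against 15429 in the low-seeded and 14002 in the high-seeded culture. The second (_s_at) gave 26254 against 17571 and 16294. Both probe sets thus ordered the cultures in the same way, with 24 h first and the high-seeded culture last. Their log2 differences between 24 h and 48 h were 0.71 and 0.63, each with a standard error of 0.10, and the probe sets differed by 0.07. A suffix of _s_at or _x_at marks probe sets whose probes may match further transcripts, which applied to 6 of the 10 (60%) and to 40.9% of all tested.

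ND6, the light-strand subunit of complex I, gave 2210 at 24 h, and at 48 h 773.3 with low and 1005 with high seeding. The 24 h signal was 2.86-fold and 2.20-fold above the 48 h signals, and the 48 h cultures themselves differed by 1.30-fold. The log2 difference was 1.30, at the 99.9th percentile of all tested probe sets in the contrast the genes were chosen by. Its standard error of 0.16 draws largely on other probe sets. The 48 h values of ND6 alone had a standard deviation of 0.26 on the log2 scale. The difference of ND6 was the highest of the 10. ND6 was also the member with the widest gap between the 48 h cultures, at 0.37 on the log2 scale.

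The subunits of complex IV, the cytochrome c oxidase that passes electrons to oxygen, differed less, apart from COX3. COX1, which holds the catalytic heme centre with copper, gave 43325 at 24 h, and at 48 h 40080 with low and 41074 with high seeding, a log2 difference of 0.09 with a standard error of 0.10. COX2, which takes up electrons from cytochrome c, gave 38565 against 33148 and 31603 on its first probe set (_at). Its second probe set (_x_at) gave 39988 against 38022 and 37315. The log2 differences of these probe sets were 0.25 and 0.09, each with a standard error of 0.10, so the measure for COX2 depended on the probe set.

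COX3, the remaining core subunit of complex IV, gave 2537 at 24 h, against 1234 and 1384 in the low- and high-seeded cultures. This was a log2 difference of 0.94 with a standard error of 0.13, or 2.06-fold and 1.83-fold over the 48 h signals. Its only probe set is of the _x_at kind and was far dimmer than those of COX1 and COX2.

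ATP6, the membrane subunit of the ATP synthase (complex V) that forms part of the proton path, gave 31691 at 24 h on its bright probe set (_s_at), against 29518 with low and 28706 with high seeding at 48 h. The dim probe set (_at) gave 178.7 against 146.5 and 147.6, close above background. Both were highest at 24 h, with log2 differences of 0.12 (standard error 0.10) and 0.25 (standard error 0.40). COX3 follows directly after ATP6 on the genome, and the differences of these neighbours were 0.94 and at most 0.25.

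**Figure D2:**
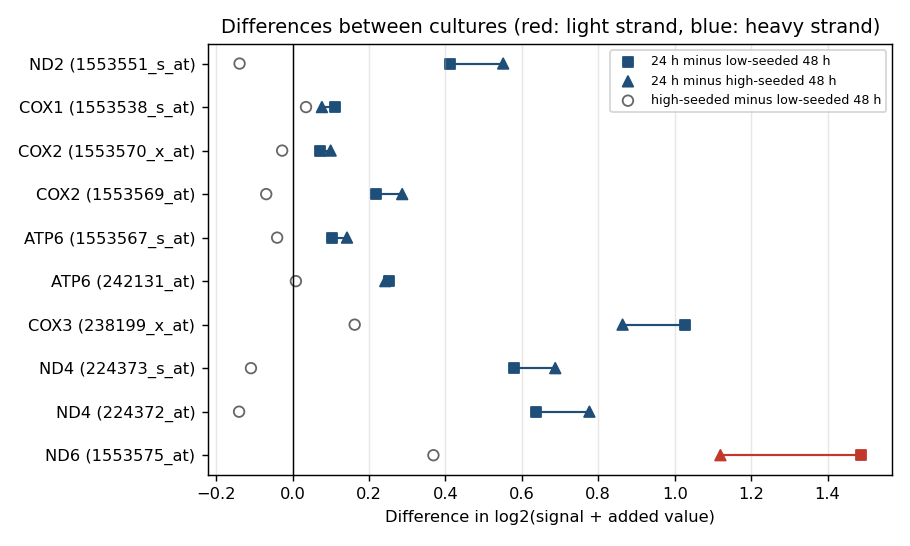
Differences in log2(signal + 22.4) between cultures for each probe set; filled squares and triangles stand for 24 h minus the low-seeded and minus the high-seeded 48 h culture, open circles for high-seeded minus low-seeded 48 h, red for the light-strand ND6 and blue for the heavy strand. All filled symbols lie above 0, and the open circles lie between -0.14 and 0.37.

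The light strand was compared with the heavy strand through ND6 on 1 side and the 9 heavy-strand probe sets of 6 genes on the other. Heavy-strand differences between 24 h and 48 h ran from 0.09 to 0.94 with a median of 0.25, and ND6 lay 1.05 above that median on the log2 scale. Against the high-seeded 48 h culture alone ND6 lay 0.83 above the heavy-strand median, and against the low-seeded culture alone 1.24 above it. COX3 on the heavy strand came within 0.359 of ND6, and the light strand rests on 1 probe set. Along the heavy strand, in the direction of transcription, the differences did not follow a steady order. ND2 (0.48) was followed by lower values for COX1, COX2 and ATP6, and then by higher ones for COX3 and ND4. Across the 6 heavy-strand genes, averaged over their probe sets, Spearman's rho between position and difference was 0.6, a description of 6 points that share the same 3 arrays.

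The size of the difference also varied with the brightness of the probe set. The brightest probe sets, those of COX1 and COX2 and 1 of ATP6, had differences of 0.09 to 0.25, while ND6 and COX3 had the highest. Spearman's rho between mean signal and difference was -0.70 over the 10 probe sets, which share arrays and, in part, genes. The dim probe set of ATP6 did not follow this order. Among all tested probe sets with a mean signal above 10000, of which there were 892, the median difference was -0.08 and 18.4% were highest at 24 h. The 7 probe sets of the mitochondrial genome in this range, those of ND2, ND4, COX1, COX2 and ATP6, were all highest at 24 h. Differences of at least 0.48 were found for 6 of the 892, and 3 of these 6 were the probe sets of ND2 and ND4. That cutoff is the value of ND2, in the contrast the genes were chosen by, so the count is a description only. COX1, COX2 and ATP6 in this range, at 0.09 to 0.25, lay below the 95th percentile of absolute differences there (0.265). These values hold for the signals as deposited, and quantile normalization put the same probe sets at 0.25 to 0.40. How far brightness bears on the differences was not tested.

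**Figure D3:**
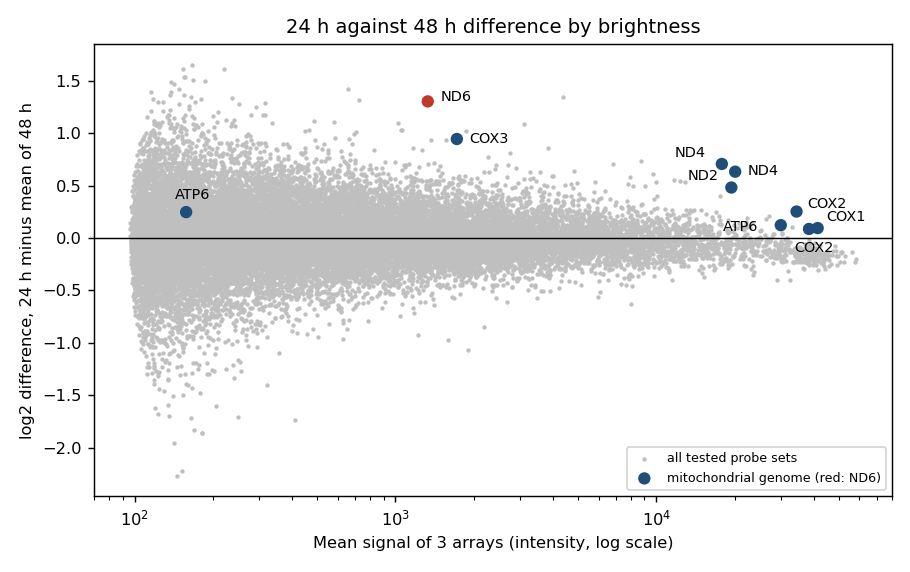
Log2 difference between 24 h and the mean of the 48 h cultures (vertical axis) against the mean signal of the 3 arrays (horizontal axis, log scale) for the 23462 tested probe sets in grey and the 10 probe sets of the mitochondrial genome in colour. ND6 (1.30) and COX3 (0.94) lie at the upper edge of the cloud at mean signals of 1329 and 1718. At mean signals above 10000 the ND4 probe sets (0.63 and 0.71) lie above all others. ND2 (0.48) lies below the highest of the other genes there, such as SRSF11 (0.55).

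The 48 h cultures were set against each other to see how the same transcripts vary with seeding at equal harvest time, with 1 array each and therefore no test. This difference had not been used to choose the genes. None of the 10 probe sets differed by more than 1.5-fold, against 11.5% of all tested probe sets. That share is over all signal levels. Most tested probe sets (15277) had a mean signal of at most 1000, with a median absolute log2 gap of 0.23. Above 10000, where 7 of the 10 lie, the median gap was 0.07, so the count does not show that these transcripts are steady. In the high-seeded culture 4 probe sets gave a higher signal, those of ND6, COX3, COX1 and the dim one of ATP6, and the other 6 a lower one, against 51% higher over all tested. The median difference (high-seeded minus low-seeded) was -0.03 on the log2 scale, and over all tested probe sets it was 0.0055. Quantile normalization turned the sign for COX1 and the dim probe set of ATP6, and COX3 and ND6 stayed higher (0.18 and 0.37). Scaling to equal medians lowers every such difference alike, with the median of all tested probe sets at -0.17, and after it only ND6 was above 0. Within complex I, ND6 on the light strand was at 0.37 and ND2 and ND4 on the heavy strand between -0.14 and -0.11. Among all tested probe sets ND6 lay at the 87.6th percentile and ND2 and ND4 at the 26.3rd to 30.6th. ND6 kept its direction under each scaling tried (0.20 to 0.37).

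Values that reflect the RNA itself are given beside these differences. The RNA integrity number was lowest at 24 h, as given above. The ratio of 3' to 5' control probe sets was 0.93 at 24 h against 0.906 and 0.877 at 48 h for GAPDH, and 1.18 against 1.10 and 1.14 for ACTB. Control probe sets for 28S ribosomal RNA of the cytoplasm gave 1409 at 24 h against 826.7 and 1053 for the 5' part, and 2760 against 2110 and 2793 for the middle part. The 3' part, below background, gave 22.8 against 26.9 and 26.7. Their part in the results was not tested.

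A probe set listed for ND3 together with the nuclear gene SH3KBP1 was kept apart, since its signal cannot be divided between the genes. It gave 41073 at 24 h, 40843 with low and 45225 with high seeding at 48 h, with a log2 difference between 24 h and 48 h of -0.07. It was therefore the single probe set with a mitochondrial protein gene in its annotation that was not highest at 24 h. No probe set was listed alone for the ribosomal RNAs, for ND4L or ATP8, or for the nuclear copies of mitochondrial genes.

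Nuclear genes that serve the mitochondrial genome were then compared between 24 h and 48 h by limma, with p-values adjusted over all 23462 tested probe sets by the Benjamini-Hochberg method. Of 248 such genes tested, each by its brightest probe set, 0 passed the adjusted threshold of 0.05 in either direction, and 32 had an unadjusted p below 0.05. Over all tested probe sets 0.192% passed, and 9.04% had an unadjusted p below 0.05. The fit assumes that a second 24 h array would have varied as the 48 h arrays did. Its spread comes from the 48 h cultures, which were seeded at different densities and are not replicates of the same condition. Of the 248 genes, 92 were higher and 156 lower at 24 h (median -0.04 on the log2 scale), against a median of 0.0047 over all tested probe sets. Scaling to equal medians raised all differences alike, which put 134 genes above 0 with a median of 0.0081, against 0.06 over all tested. With quantile normalization 104 were higher (median -0.02) and with scaling to the middle probe sets 80 (median -0.06). Signals were highest at 24 h for 54 genes (21.8%) and lowest for 119 (48.0%), against 35% and 35.3% of all tested probe sets. These genes were represented by their brightest probe sets. Over all tested probe sets the share highest at 24 h was 18.4% above a mean signal of 10000 and 35.2% from 1000 to 10000. How far brightness bears on these shares was not tested. A gene that missed the threshold is not shown to be equal between the cultures.

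**Figure D4:**
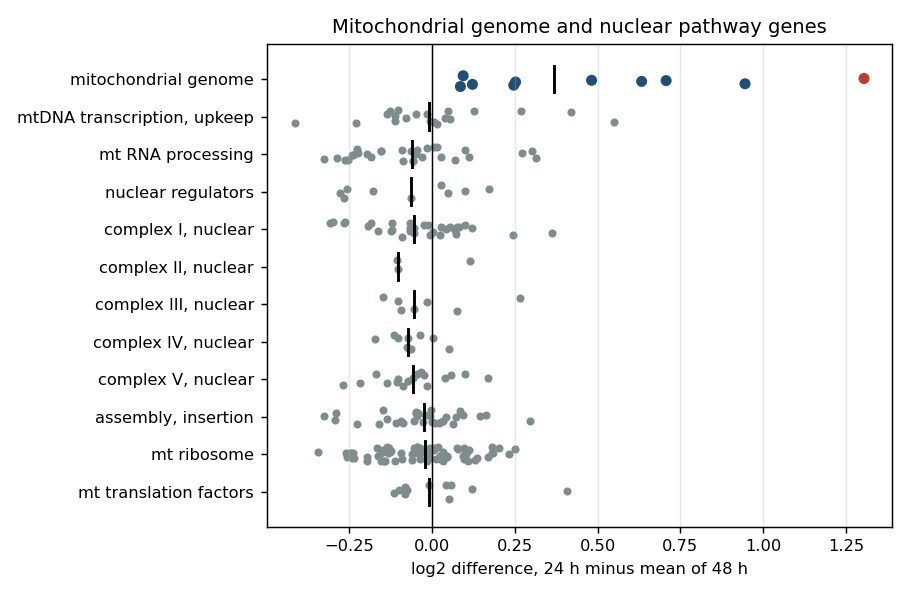
Log2 difference between 24 h and the mean of the 48 h cultures for the 10 probe sets of the mitochondrial genome (top row, ND6 in red) and for 248 nuclear genes by list, 1 point per probe set, with black bars at the medians. The top row has its median at 0.37, and the medians of the 11 nuclear lists lie between -0.10 and -0.0093.

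Among 70 nuclear subunits of complexes I to V, which assemble with the mitochondrial ones, 22 were higher and 48 lower at 24 h, and 0 passed the test (7 with an unadjusted p below 0.05 by limma). In complex I, 13 of 33 were higher, from NDUFA5 of the peripheral arm at 0.36 (standard error 0.10, limma adjusted p = 0.18) to NDUFA11 of the membrane arm at -0.31 (standard error 0.09, adjusted p = 0.275). In complex II, which holds no mitochondrially encoded subunit, 1 of 3 was higher, with SDHD at 0.12 and SDHA at -0.10. In complex III 2 of 7 were higher, with UQCRQ at 0.27 and CYC1 at -0.15. UQCRQ gave 16510 at 24 h against 16650 with low and 11290 with high seeding, so its value rests on the high-seeded array. In complex IV 2 of 10 were higher, with COX8A at 0.05 and COX6A1 at -0.17. In complex V 4 of 17 were higher, with ATP5MC3 at 0.17 and ATP5F1C at -0.27. The medians of these lists ran from -0.10 to -0.05 on the log2 scale. Over all tested probe sets the median was -0.08 above a mean signal of 10000 and -0.0089 from 1000 to 10000. The part of brightness in these counts was not tested.

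The machinery that copies and transcribes mitochondrial DNA gave no call either, with 9 of 20 genes higher and a median of -0.0099. PRIMPOL, a primase-polymerase, had the highest value at 0.55 (standard error 0.21, limma adjusted p = 0.43), and the DNA ligase LIG3 the lowest at -0.41 (standard error 0.18, adjusted p = 0.504). TFAM, which packages the genome and activates its promoters, gave 4471 at 24 h against 4565 and 4463, a log2 difference of -0.01. POLRMT, the RNA polymerase of the organelle, gave 1175 against 1210 and 1057, a log2 difference of 0.05. For TFAM and POLRMT the adjusted p from limma was 0.987 and 0.959, and both genes were named after their values were seen, as were LRPPRC and SLIRP below.

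Factors that process mitochondrial RNA included 9 genes that were higher and 21 that were lower of 30 tested, with a median of -0.06 and 0 calls. FASTK was highest at 0.32 and the helicase DDX28 lowest at -0.33. LRPPRC and SLIRP, which together protect the messages of the heavy strand, gave log2 differences of -0.06 and 0.07 (limma adjusted p = 0.916 and 0.895). Nuclear regulators of mitochondrial genes were higher in 4 of 9 cases, with the nuclear receptor ESRRA at 0.17 and MYC at -0.28. Of the proteins of the mitochondrial ribosome, 30 of 76 were higher, from MRPL19 at 0.25 to MRPS18C at -0.34. Mitochondrial translation factors were higher in 5 of 11 cases, with MTRFR, a release factor, at 0.41 and the elongation factor TUFM at -0.12. Assembly and insertion factors were higher in 13 of 32 cases, with CMC1 at 0.30 and ATPAF2 at -0.33.

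The median profile of the 10 probe sets over the 3 arrays, centred on its mean, was 0.245 at 24 h, and at 48 h -0.089 with low and -0.174 with high seeding. Those probe sets with 1 gene whose profile lay nearest, by Euclidean distance on the log2 scale over 3 arrays, belonged to EPHB4, a receptor tyrosine kinase, PHTF1 and PDPN, a membrane glycoprotein. Their distances were 0.0113, 0.0115 and 0.0119. With 3 arrays such likeness is common, as 3655 of 20359 other probe sets lay nearer to the profile than the median member did (0.226).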

How the data were processed

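The authors made cDNA from total RNA, transcribed it into cRNA with a biotin label and hybridized this cRNA to Affymetrix Human Genome U133 Plus 2.0 arrays. They deposited MAS5 signals (GCOS 1.0 in the submitters' processing notes), an intensity on a linear scale. It was scaled to a common trimmed mean (2% trimmed at each end). Absent/present calls were not used here. With 3 arrays, their number sets how precise a value can be. No pair of arrays held identical values.

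Genes were named from the platform annotation, only for the 41097 probe sets listed for 1 gene. The 1801 listed for several genes and the 11777 without a gene named none. Gene order along the mitochondrial genome was taken from the RefSeq annotation of GRCh38.p14, without coordinates. The tested probe sets had a mean log2 signal above that of the mean background threshold (95.9). The value added before log2 (22.4) is the median signal of the background reference. The 24 h array was compared with both 48 h arrays by limma 3.58.1 in R 4.3.3 (lmFit and eBayes with a mean-variance trend), which leaves 1 residual degree of freedom per probe set. The script was tested on simulated data. Genes of a list were represented by their brightest probe set.

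The members, lists and tests were chosen with earlier results of these data known. Named genes were all members, the highest and lowest gene of each list without calls, and the 3 nearest profiles. TFAM, POLRMT, LRPPRC and SLIRP were named outside this rule, after their values were seen. Alternatives were other added values, quantile normalization, scaling to equal medians or to the middle probe sets above background, no filter, no trend, other choices of probe sets, other background percentiles and each 48 h array left out.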

Additional observations from a re-analysis of the deposited data

How the results depend on the processing

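All 10 probe sets of the mitochondrial genome were highest at 24 h under quantile normalization and both other scalings, which describes the difference they were chosen by. Leaving out the _s_at and _x_at kinds, or a 48 h array, cannot change such a count other than by its size, and it was 4 of 4 without those kinds. The median difference between 24 h and 48 h moved from 0.37 to 0.48 without those kinds and to 0.48 with the brightest probe set per gene. It thus depended on which probe sets were kept. With each 48 h array left out it ran from 0.33 to 0.42. ND6 minus the heavy-strand median ran from 0.83 to 1.24 over these. Quantile normalization raised the small differences of bright probe sets, for COX1 from 0.09 to 0.25 and for the bright ATP6 probe set from 0.12 to 0.25. For COX2 they rose from 0.25 to 0.40 (_at) and from 0.09 to 0.26 (_x_at). The sizes of these differences therefore depended on the scaling. The difference between the 48 h cultures moved to -0.21 after scaling to equal medians, by construction, since that scaling moved the median of all tested probe sets from 0.0055 to -0.17. Between 24 h and 48 h limma called 45 of all probe sets (36 higher, 9 lower), against 14 after scaling to equal medians (7 higher, 7 lower), 85 without the filter (67 higher, 18 lower), where more probe sets were tested, and 0 without the mean-variance trend (1369 at an unadjusted p below 0.05). Calls among the nuclear genes of the pathway were 0 in every setting run, with 1 to 54 at an unadjusted p below 0.05 by limma. No paired analysis was possible because the groups share fewer than 2 replicate numbers. Below a signal of 1000 the tested probe sets differed between the 48 h cultures by a median of 0.23 on the log2 scale, against 0.07 above 10000, which limits what the dim probe set of ATP6 shows.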
